A study of Homo sapiens with 3 samples.

Results

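NF-kB cytokine and senescence secretory genes are 54 genes of inflammatory signalling and of the secretome of senescent cells, fixed as a list of symbols and grouped here by role into 18 cytokines and chemokines, 8 NF-kB signalling components, 5 NF-kB target genes of other kinds, 16 proteases, inhibitors and binders, and 7 growth factors and other secreted proteins. On the arrays, 52 of the 54 had at least 1 feature annotated with that symbol alone, 240 features in all, and 42 had a value on all 3 arrays, among 12550 genes that did. The study used MCF10A, a non-tumorigenic mammary epithelial cell line that grows without limit, stably transfected with obscurin shRNA-2 or with the scrambled control shRNA-1 under puromycin selection (1.5 ug/mL). Once grown to a confluency of 70%, both cultures received 150 uM etoposide, a poison of topoisomerase II, for 48 hours, so the control cells carried the drug and a vector too. Each of 3 arrays, called independent replicates in the labels, compared cDNA of obscurin shRNA cells (Cy5) with cDNA of control shRNA cells (Cy3), with the dyes the same way round on all 3. The labels do not say whether a stable line was 1 clone or a pool, and no untreated culture was analysed here.

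NF-kB is a family of dimeric transcription factors that inhibitory IkB proteins hold in the cytoplasm until an upstream kinase marks those inhibitors for destruction. Its targets include cytokines, chemokines, adhesion molecules and its own inhibitors, so the pathway switches itself off again. Cells with lasting DNA damage can enter senescence and then secrete interleukins, chemokines, matrix proteases and growth factor binding proteins, in large part through NF-kB. The comparison asks whether obscurin, a giant cytoskeletal signalling protein, alters these genes under a DNA-breaking drug.

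Promoters of several of these genes hold the kappaB consensus, the DNA letters that NF-kB dimers bind, and 5 of them are shown for genes that the results below return to. The windows cover 250 bases before to 50 after the annotated start (RefSeq, GRCh38.p14), 5′ to 3′ along the gene, and capitals mark a match on either strand. CXCL1 lies at chr4:73869143-73869442 on the plus strand, CXCL2 at chr4:74099146-74099445 on the minus strand, CXCL3 at chr4:74038640-74038939 on the minus strand, IL6 at chr7:22726950-22727249 on the plus strand and NFKBIA at chr14:35404700-35404999 on the minus strand.
CXCL1: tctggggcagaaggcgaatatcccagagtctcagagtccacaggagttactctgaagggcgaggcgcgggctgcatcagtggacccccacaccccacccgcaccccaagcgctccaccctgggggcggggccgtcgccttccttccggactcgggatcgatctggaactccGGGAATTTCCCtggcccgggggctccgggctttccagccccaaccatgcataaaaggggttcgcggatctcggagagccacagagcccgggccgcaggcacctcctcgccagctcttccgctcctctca
CXCL2: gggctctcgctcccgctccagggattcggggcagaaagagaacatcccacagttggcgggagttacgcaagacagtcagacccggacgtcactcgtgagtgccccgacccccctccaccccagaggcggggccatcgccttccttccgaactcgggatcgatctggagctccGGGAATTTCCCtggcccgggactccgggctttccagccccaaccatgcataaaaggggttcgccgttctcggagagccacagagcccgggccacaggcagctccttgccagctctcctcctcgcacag
CXCL3: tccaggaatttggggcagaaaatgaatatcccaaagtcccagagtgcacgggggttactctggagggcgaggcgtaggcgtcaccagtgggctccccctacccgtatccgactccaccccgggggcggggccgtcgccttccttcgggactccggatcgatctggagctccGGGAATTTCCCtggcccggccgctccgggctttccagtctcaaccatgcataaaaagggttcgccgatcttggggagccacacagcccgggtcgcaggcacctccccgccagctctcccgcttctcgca
IL6: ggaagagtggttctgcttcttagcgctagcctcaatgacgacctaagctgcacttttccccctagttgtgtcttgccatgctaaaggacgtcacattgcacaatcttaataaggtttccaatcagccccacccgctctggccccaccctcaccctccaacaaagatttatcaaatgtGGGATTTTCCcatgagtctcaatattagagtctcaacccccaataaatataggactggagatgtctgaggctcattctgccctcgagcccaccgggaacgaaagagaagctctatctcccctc
NFKBIA: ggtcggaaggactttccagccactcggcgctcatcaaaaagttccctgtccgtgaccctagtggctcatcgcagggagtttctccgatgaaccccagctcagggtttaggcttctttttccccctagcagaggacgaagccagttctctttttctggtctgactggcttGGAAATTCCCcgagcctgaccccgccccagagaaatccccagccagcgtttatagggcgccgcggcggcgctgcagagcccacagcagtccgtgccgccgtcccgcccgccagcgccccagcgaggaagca
In CXCL1, CXCL2 and CXCL3 the same letters match on both strands, as overlapping matches that start at -79 and -78, at -78 and -77, and at -79 and -78. IL6 and NFKBIA have 1 match each, starting at -73 and -81. Of the 39 listed genes with a window, 15 had a match, and 16 of their 54 windows (29.6%) did, against 11.3% of all 35116 windows of the same length. By role, genes with a match numbered 7 of 13 cytokines and chemokines, 4 of 6 signalling components, 1 of 5 other targets, 3 of 10 proteases, inhibitors and binders, and 0 of 5 growth factors. Measured genes with a match had a median log2 ratio of -0.83 (11 genes, -3.28 to 0.42) and those with a window but no match -0.42 (18 genes, -2.34 to 0.47). The ranges overlapped. No match means that the 10 letters of the consensus were not found, not that NF-kB cannot bind there. CXCL8 and ICAM1 were counted without a match. Their windows hold ggaatttcc and ggaaattcc, letters that also lie within the matches of CXCL1 and NFKBIA. Binding of NF-kB to these promoters was not tested.

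Values are log2 ratios minus each array's median over all features, so 0 is the middle feature of an array. A positive value likely means more RNA in obscurin shRNA cells, which are channel 1, but the direction of the deposited ratio is not stated. The middle feature was not the middle gene: the 12550 tested genes had a median of -0.61, and a narrow peak of features lay above 0, around the most repeated value of each array (0.58, 0.69 and 0.61 on arrays 1, 2 and 3). Features of the listed genes followed the same shape. Within 0.5 of the most repeated value lay 34.7%, 32.6% and 33.5% of them on arrays 1, 2 and 3, against 38.7%, 35.1% and 37.9% of all features with 1 symbol. More than 2 below the array median lay 27.6%, 30.1% and 29.4% of them, against 26.6%, 27.2% and 26.9%. No listed gene had a feature at an array's highest value. As 1 ratio per feature is given, levels of these RNAs in either culture, and hence the cells' identity, could not be checked, the knockdown of obscurin was not analysed here, and fewer expressing cells and less RNA per cell cannot be told apart.

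**Figure D1:**
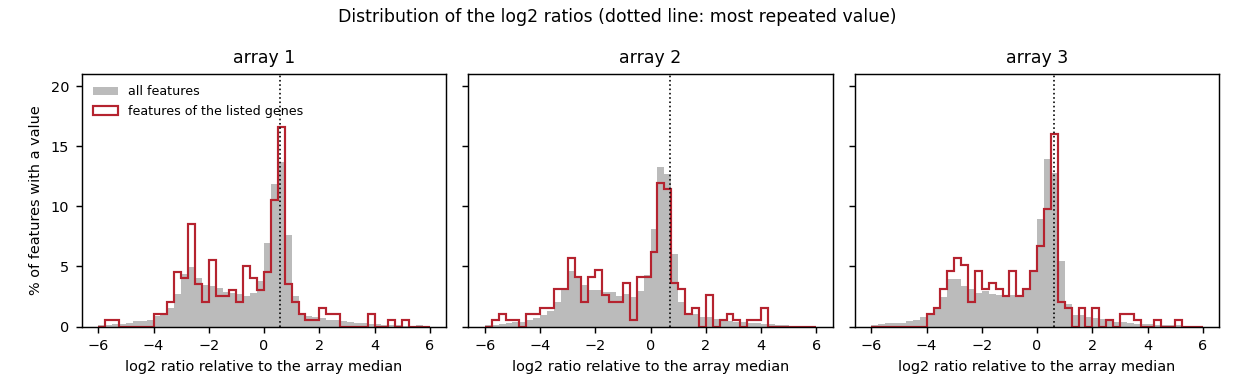
Share of features with a value (%) by log2 ratio relative to the array median, in bins of 0.25 between -6 and 6, for all features (grey) and for the features of the listed genes (red line) on each array; the dotted line is the most repeated value. Both outlines have a narrow peak above 0 and a broad shoulder between about -3 and -2.

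The names of the features bear on every value below. The annotation lists 236 transcripts on at least 10 features each, 2466 features in all, which should rank alike on an array. In 10 of 15 stretches (5 stretches of 9044 consecutive features on each of 3 arrays) they were more alike when each value was taken 170 features, or 1 feature row, earlier than when taken at its own place, and in 5 the own place was better. Those 5 were the first and second stretch of arrays 2 and 3 (intraclass correlation of ranks 0.51 and 0.21 on array 2, 0.45 and 0.18 on array 3) and in the last stretch of array 1 (0.20). In no stretch was it better on all 3 arrays. Genes are named here by the annotation without a shift, and values at the place with the higher intraclass correlation, stretch by stretch, stand beside those the results turn on; which place is right was not tested.

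**Figure D2:**
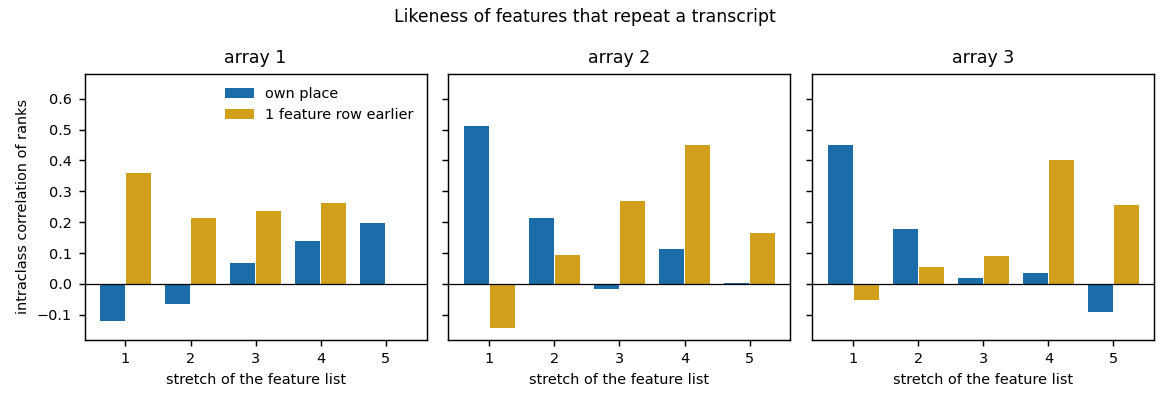
Intraclass correlation of the ranks of features that repeat a transcript, by stretch of the feature list, at the own place (blue) and 1 feature row earlier (yellow), for each array. Blue is higher in 5 of 15 stretches, the first and second of arrays 2 and 3 and the last of array 1.

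No listed gene differed between obscurin shRNA and control shRNA cells by limma after Benjamini-Hochberg adjustment over the 12550 genes: 0 of 42 passed an adjusted p of 0.05 on either side, as did 0 of all genes (0% above and 0% below). The smallest adjusted p among the 42 was 0.0524, shared by CSF3, CXCL2, NFKBIA and MMP9, and it was also the smallest of all genes. At an unadjusted p under 0.05 there were 14 of the 42 below 0 (22.8% of all genes were) and 1 above (0.829% of all genes). Below the array median on all 3 arrays lay 21 of the 42 (33.8% of all genes), above it on all 3 lay 5 (15.7% of all genes), and 16 were on both sides. The median over the 42 was -0.71, against -0.61 over all genes tested, and 12 had a mean above 0 and 30 below. The call depended on the zero point and on the place. When the most repeated value of an array was its 0, 11 of 42 passed below (17.2% of all genes did) and 0 above (0.0159%). At an unadjusted p under 0.05, 22 of 42 then lay below (36.7% of all genes) and 0 above (0.0876%), with 29 below 0 on all 3 arrays (62% of all genes) and 1 above (1.49%). At the place with the higher intraclass correlation, 5 of 42 genes with a value on all arrays there passed below (5.99% of all genes) and 0 above (0.0161%). At an unadjusted p under 0.05, 16 lay below there (24.2% of all genes) and 1 above (0.916%), with 22 below 0 on all 3 arrays (34.8%) and 5 above (16%). With 3 arrays, the standard errors of single genes ran from 0.33 to 1.01 on the log2 scale, and 12 of the 42 had an SD above 1.

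Across the 42 genes the arrays ranked them partly alike, with a Spearman rank correlation of 0.570 for arrays 1 and 2, 0.597 for 1 and 3, and 0.670 for 2 and 3. Over all tested genes these were 0.332, 0.267 and 0.494. Features per gene were not matched: 240 features named 52 of the listed genes, and 31332 features named 18334 genes in all. The 42 genes are not independent replicates, they were measured by 1 to 13 features, and all share the arrays and the dye orientation. By role, the medians were -0.83 for 15 cytokines and chemokines, -1.18 for 8 NF-kB signalling components, -1.30 for 3 other NF-kB targets, -0.22 for 12 proteases, inhibitors and binders, and 0.06 for 4 growth factors. Without array 1 the cytokine median was -0.33 and the protease median -0.62, without array 3 the protease median was -0.46, and the growth factor median was -0.05 without array 2 and -0.13 without array 3. With the median of a gene's features in place of their mean, the protease median was 0.089. The signalling components and other targets, 11 genes, had a joint median of -1.25, with -1.11, -1.47 and -1.17 on arrays 1, 2 and 3, and lay under the median of the proteases (-0.52, -0.48 and -0.60) on each array.

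**Figure D3:**
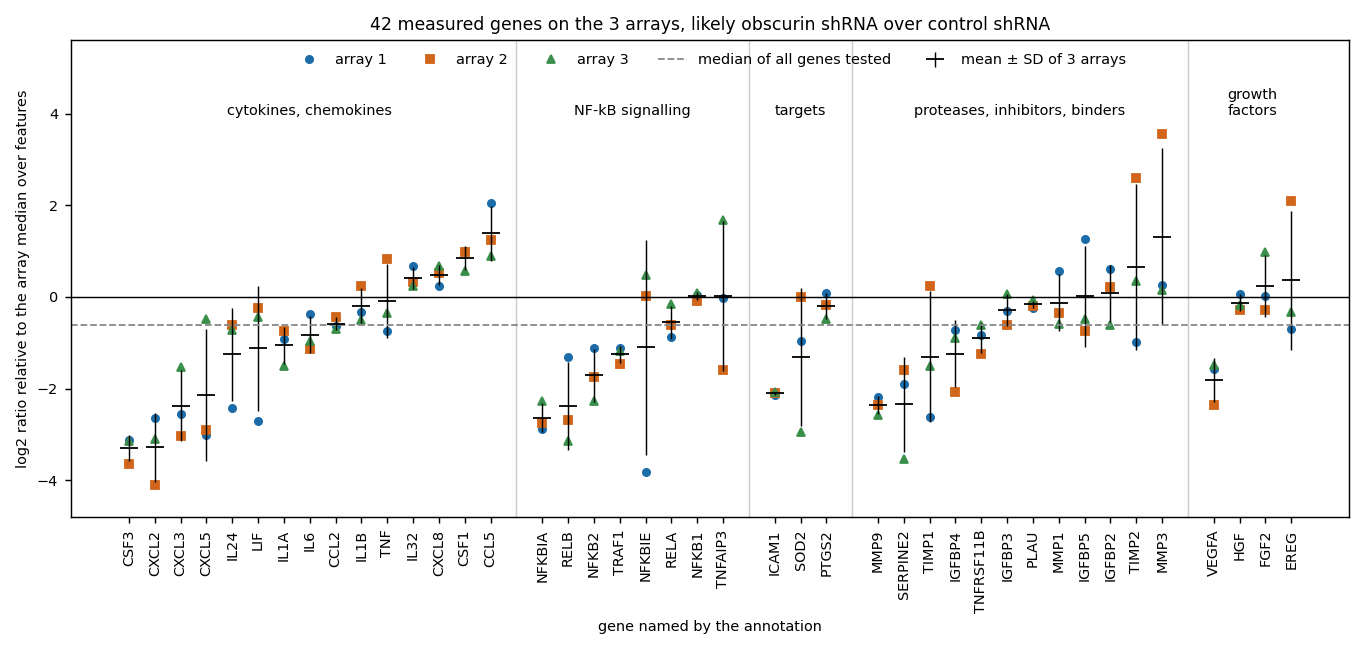
Log2 ratio of the 42 genes with a value on all 3 arrays, relative to each array's median over features, likely obscurin shRNA over control shRNA; coloured points are arrays 1, 2 and 3, black bars the mean and SD, the dashed line the median of all tested genes (-0.61). CSF3, CXCL2, NFKBIA, ICAM1 and MMP9 have all 3 points below -2, and CCL5 has all 3 above 0.

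Chemokines and colony-stimulating factors held both ends of the range. CSF3, the granulocyte growth factor, had -3.13, -3.63 and -3.14 on arrays 1, 2 and 3 from 1 feature, a mean of -3.30 ± 0.29 (SD, n = 3 arrays, limma adjusted p = 0.0524, 95% interval -4.27 to -2.33). CXCL2, a neutrophil attractant, had -2.64, -4.11 and -3.10 from 2 features, a mean of -3.28 ± 0.75 (limma adjusted p = 0.0524). Its array 2 value averages -2.85 and -5.37, the latter from a feature with no value on arrays 1 and 3. Its close relative CXCL3 had -2.55, -3.04 and -1.52 (-2.37 ± 0.77, limma adjusted p = 0.0716). All 9 of these values lay below those of the median gene of their array. CXCL5, of the same chemokine family, had -3.02, -2.90 and -0.47, with array 3 apart from the others. Each of the 2 features of CXCL3 and of CXCL5 differed from the other: on array 3 they had -3.11 and 0.07 for CXCL3, and -1.34 and 0.40 for CXCL5. CXCL1, CXCL2 and CXCL3 are closely related genes, and whether their probes tell them apart was not tested.

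At the other end, CCL5, which attracts T cells and monocytes, had 2.06, 1.24 and 0.89 from 1 feature (mean 1.396 ± 0.60, limma adjusted p = 0.150). CSF1, the macrophage growth factor, had 1.01, 0.98 and 0.56 from 2 features (0.85 ± 0.25, limma adjusted p = 0.249). CXCL8, the interleukin-8 chemokine typical of the senescent secretome, had 0.24, 0.51 and 0.67 (0.47 ± 0.22, limma adjusted p = 0.425). The cytokine IL32 had 0.68, 0.33 and 0.23 from 1 feature, but -2.90 and -1.52 on arrays 1 and 2, with no value on array 3, when taken 1 feature row earlier, the better place in its stretch on every array. CSF1, CXCL8 and IL32 lay inside the narrow peak of features on all 3 arrays, and with the zero point at the most repeated value CXCL8 and IL32 had means of -0.15 and -0.21.

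The interleukins at the top of the secretory programme were spread around the median of all genes. IL1A, which acts upstream in the senescent secretome, had -0.92, -0.73 and -1.50 over 10 features (mean -1.05 ± 0.40, limma adjusted p = 0.200). IL6, a main product of senescent cells, had -0.37, -1.14 and -0.97 (-0.83 ± 0.40, limma adjusted p = 0.276). IL1B, a secreted inflammatory cytokine, had -0.33, 0.24 and -0.49. TNF, the classical activator of NF-kB, had -0.73, 0.82 and -0.36, so these latter genes lay on both sides of 0. CCL2, a monocyte attractant, had -0.63, -0.43 and -0.70 (-0.59 ± 0.14, limma adjusted p = 0.347), close to the median gene on every array. This holds for the means of its features, whose medians were 0.535, 0.69 and -0.98 on arrays 1, 2 and 3. LIF, a cytokine of the IL6 family, had -2.71, -0.23 and -0.43, and IL24, of the IL10 family, -2.42, -0.60 and -0.72. In both, array 1 was the low one.

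Among the signalling components, the DNA-binding subunits differed from one another. RELA, the main activating subunit, had -0.88, -0.62 and -0.16 over 11 features (mean -0.55 ± 0.36, limma adjusted p = 0.392). NFKB1, the precursor of p50, had 0.04, -0.08 and 0.08 over 10 features (0.01 ± 0.09, limma adjusted p = 0.981), so its mean stood near 0 on each array. Its single features did not: they ran from -3.44 to 4.38, with an SD of 1.39, 2.13 and 2.255 on arrays 1, 2 and 3. NFKB2, the precursor of p52, had -1.11, -1.74 and -2.27 over 10 features (-1.71 ± 0.58, limma adjusted p = 0.102). RELB, the partner of p52 in the non-canonical pathway, had -1.31, -2.69 and -3.15 from 1 feature (-2.38 ± 0.96, limma adjusted p = 0.0850). The array means of NFKB2 and RELB were thus below those of NFKB1 and RELA on every array, without overlap. Single features did overlap: on array 1 they ran from -5.69 to 4.595 for NFKB2 and from -2.955 to 0.745 for RELA. The difference was not tested.

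Inhibitors and adaptors, most of them NF-kB targets themselves, also varied. NFKBIA, the IkB alpha inhibitor whose promoter is printed above, had -2.87, -2.75 and -2.27 from 1 feature (mean -2.63 ± 0.32, limma adjusted p = 0.0524, 95% interval -3.61 to -1.66). NFKBIE, the IkB epsilon inhibitor, had -3.81, 0.03 and 0.48, with array 1 apart. TNFAIP3, the ubiquitin-editing enzyme A20 that ends NF-kB signalling, had -0.03, -1.59 and 1.68, and the arrays did not agree on its side. TRAF1, an adaptor of TNF receptors, had -1.12, -1.47 and -1.17 from 2 features (-1.25 ± 0.19, limma adjusted p = 0.129). Among targets with other functions, ICAM1, the adhesion molecule that leukocyte integrins bind, had -2.14, -2.10 and -2.08 over 10 features (-2.11 ± 0.03, limma adjusted p = 0.0544). Its array means had the smallest spread of the 42 genes. Within an array its features spread far more, with an SD of 1.55, 1.92 and 1.31 on arrays 1, 2 and 3, so these close means do not show that its features agreed. PTGS2, the inducible prostaglandin synthase, had 0.08, -0.18 and -0.49 over 11 features, and SOD2, the mitochondrial superoxide dismutase, -0.96, 0.00 and -2.96 over 4.

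Matrix proteases differed widely from one another. MMP9, a gelatinase, had -2.18, -2.35 and -2.57 over 10 features (mean -2.37 ± 0.20, limma adjusted p = 0.0524, 95% interval -3.30 to -1.43). MMP1, the interstitial collagenase, had 0.58, -0.36 and -0.59 over 10 features (-0.13 ± 0.62, limma adjusted p = 0.853). MMP3, stromelysin 1, had 0.25, 3.55 and 0.16 from 1 feature, so its mean of 1.32 ± 1.93 rested on array 2. Every array mean of MMP9 lay below every array mean of MMP1. Their single features overlapped, from -3.84 to -0.06 for MMP9 and from -2.73 to 5.06 for MMP1. PLAU, the urokinase protease, had -0.23, -0.19 and -0.07 over 10 features (-0.16 ± 0.09, limma adjusted p = 0.765). SERPINE2, an inhibitor of thrombin and urokinase, had -1.89, -1.60 and -3.53 from 1 feature (-2.34 ± 1.04, limma adjusted p = 0.0964).

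The metalloprotease inhibitors TIMP1 and TIMP2 had -2.63, 0.23 and -1.50, and -0.98, 2.59 and 0.35, from 1 feature each, and neither kept to 1 side. Binding proteins of the insulin-like growth factors, which senescent cells secrete, had no common side, and those with a value on 2 arrays only follow further below. IGFBP3 had -0.31, -0.60 and 0.08 over 12 features (mean -0.28 ± 0.34, limma adjusted p = 0.634), IGFBP2 0.61, 0.22 and -0.60 from 1, and IGFBP5 1.27, -0.75 and -0.48 over 3. IGFBP4 had -0.73, -2.08 and -0.90 from 1 feature (-1.23 ± 0.74, limma adjusted p = 0.210). TNFRSF11B, the decoy receptor osteoprotegerin, had -0.83, -1.25 and -0.61 over 11 features (-0.90 ± 0.33, limma adjusted p = 0.242).

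Of the growth factors, VEGFA, which drives vessel growth, stood apart from the other measured ones. It had -1.57, -2.36 and -1.48 over 13 features (mean -1.81 ± 0.48, limma adjusted p = 0.0839). Its array 3 value includes a feature at -9.21, and the median of its features there was -1.10. FGF2, a fibroblast growth factor, had 0.02, -0.29 and 0.99 over 11 features, and HGF, the ligand of the MET receptor, 0.08, -0.28 and -0.17 over 12 (-0.12 ± 0.18, limma adjusted p = 0.822). EREG, a ligand of the EGF receptor, had -0.69, 2.10 and -0.32 over 2 features, with array 2 apart. VEGFA lay below FGF2, HGF and EREG on all 3 arrays.

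Another 10 genes had a value on 2 arrays only and were not tested. The chemokines CXCL1 and CCL20 had 1.01 and 0.71, and 3.02 and -1.28, on arrays 2 and 3. The NF-kB targets TNFAIP2 and VCAM1, an endothelial adhesion molecule, had -0.85 and -3.49, and 0.42 and -1.77, on arrays 1 and 3. MMP10, a stromelysin, had 0.66 and 0.56 on arrays 1 and 3, and PLAUR, the urokinase receptor, -1.98 and 0.26 on arrays 1 and 2. Those pairs show how far single features differed between arrays. IGFBP6 had -2.33 and -2.86 on arrays 2 and 3, and IGFBP7 -0.29 and -7.70 on arrays 1 and 3. STC1, a secreted glycoprotein hormone, had 2.58 and 0.86 on arrays 1 and 3, and ANGPTL4, an inhibitor of lipoprotein lipase, -3.01 and -1.48 on arrays 1 and 2. For CSF2, a myeloid growth factor, and AREG, a ligand of the EGF receptor, no feature carried that symbol alone, and they were not analysed here.

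Repeated features give a view of the spread within a gene. At least 10 features each measured 18 of the genes (192 features), 2 to 4 measured 11, and 1 measured 23. Of 462 values of the 18 genes, 256 (55.4%) lay below the array median, against 51.2% of all values of features with 1 symbol. For MMP9, all 26 values did, from -3.84 to -0.06 with a median of -2.42. For ICAM1, 21 of 25 did (median -2.04), for VEGFA 26 of 33 (median -2.13), for IL1A 17 of 24 (median -0.98) and for NFKB2 17 of 25 (median -2.08). These 5 genes had the highest shares below the array median of the 18. For the other genes the values fell on both sides, within the same array: RELA had 16 of 31 values below, TNF 10 of 23, IL1B 11 of 27 and FGF2 10 of 26. NFKB2 ran from -6.13 to 4.595 and VEGFA from -9.21 to 1.54, so the features of a gene differed by more than its 3 array means did. The intraclass correlation of ranks over the 18 genes was 0.08, 0.12 and 0.12 on arrays 1, 2 and 3. All these values are those at the own place. With every value taken 1 feature row earlier, 217 of 459 values of the 18 genes (47.3%) lay below the array median. At the place with the higher intraclass correlation, 231 of 459 (50.3%) did, so the larger share below was not kept at either. Of the MMP9 values at the latter place, 22 of 25 lay below, and the highest was 1.74. There, 26 of 28 values of ICAM1 lay below, 27 of 32 of VEGFA, 22 of 27 of IL1A and 18 of 23 of NFKB2.

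**Figure D4:**
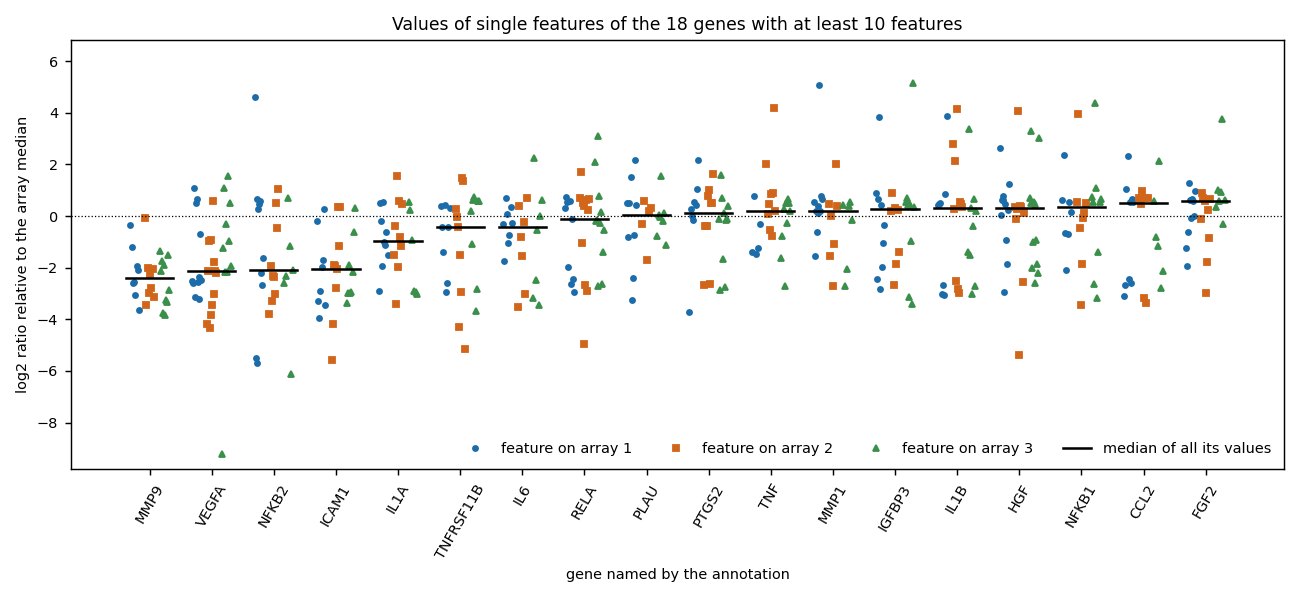
Log2 ratio relative to the array median of each feature of the 18 genes with at least 10 features, by array, ordered by the median of all values of a gene (black line). At the own place, which is plotted, every MMP9 value is below 0, while most other genes have features on both sides of 0 on each array.

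Tested feature by feature rather than by gene, 21 of 129 member features with a value on all 3 arrays passed limma's threshold below 0 (16.3%; 11.9% of 16124 features did) and 0 above (0.0372% of features). They belonged to 15 genes. MMP9 had 5 features past the threshold, VEGFA 3, and CSF3 and NFKBIA their only one. MMP9 has 10 features and VEGFA 13 in all, but those without a value on all 3 arrays were not tested. RELA, NFKB1, IL1B, CCL2, IGFBP3, ICAM1 and TNFRSF11B had 1 each, among 10 to 12 features tested or not. A called feature of these genes stood beside tested ones that were not called. The remaining 4 genes were CXCL2 and CXCL3, IL24 and SOD2, with 1 each.

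Each stretch was also taken at the place with the higher intraclass correlation. That place was chosen on repeated transcripts, those of the 18 genes among them, so their likeness there is no independent support. Of 37 genes with values on all arrays at both places, 7 had a mean of the other sign and 4 moved by more than 1 log2 unit. CSF3 hardly moved, with -3.03, -3.63 and -3.14 (mean -3.27 ± 0.32), nor did CCL5 with 1.82, 1.24 and 0.89 (1.31 ± 0.47). For the only features of CSF3, CCL5, RELB and IGFBP6, the own place was the one taken on arrays 2 and 3. Their values there are the same by construction, and only array 1 could differ. RELB narrowed to -2.69, -2.69 and -3.15 (-2.84 ± 0.26), and ICAM1 had -2.57, -2.71 and -2.40 (-2.56 ± 0.16). CXCL1, above 0 at its own place, had -2.45, -2.85 and -2.99 there (-2.76 ± 0.28), beside its relatives CXCL2 at -2.90 and CXCL3 at -1.998. CXCL5, of the same chemokine family, had -1.81 and 1.99 on arrays 1 and 2 there and no value on array 3. The 5 genes past the threshold at this place were CSF3, RELB, ICAM1, CXCL1 and IGFBP6 (-2.80 ± 0.44), all at a limma adjusted p of 0.0482. CSF1 changed from 0.85 to -0.28 and IGFBP4 from -1.23 to 0.63. NFKBIA had -1.42, -3.27 and -1.96 there (limma adjusted p = 0.0890), and MMP9 -2.17, -1.59 and -2.71 (limma adjusted p = 0.0636).

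**Figure D5:**
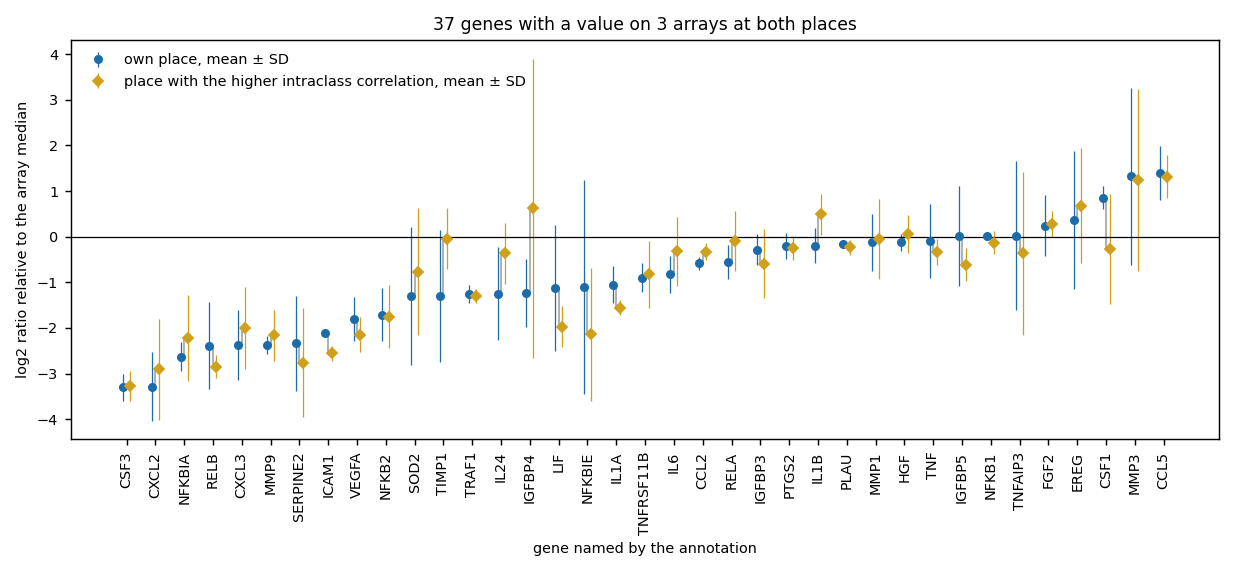
Mean log2 ratio relative to the array median (± SD over 3 arrays) of the 37 genes with a value on all arrays at both places, at the own place (blue circles) and at the place with the higher intraclass correlation (yellow diamonds), ordered by the former. CSF3, ICAM1, RELB and CCL5 keep their side, while CSF1 and IGFBP4 change it. For CSF3, RELB and CCL5 the values of arrays 2 and 3 are the same at both places by construction.

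In the first and second stretch of arrays 2 and 3, where the own place was the better one, 65 features of 33 of these genes had a value on both arrays. Below the median of both arrays lay 29 of the 65 (41.9% of 7689 features with 1 symbol there did), above it 17 (35.2%), and 19 were on opposite sides. The only features of CSF3, CCL5, CXCL8, RELB, IGFBP6, MMP3 and CCL20 were among the 65. Not all of these agreed between arrays 2 and 3: MMP3 had 3.55 and 0.16, and CCL20 3.02 and -1.28.

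Other genes of the pathway, from lists of textbook members, did not pass at their own place. Of 31 other NF-kB pathway genes, such as kinases, adaptors and ligases, 20 were measured and 0 passed on either side; their median was -0.27, with 5 above the array median on all 3 arrays and 4 below. REL, the c-Rel subunit, had -2.69, -2.81 and -3.11 (mean -2.87 ± 0.22, limma adjusted p = 0.0524). RBCK1, a subunit of the linear ubiquitin ligase, had -5.58, -3.31 and -2.99, and UBE2N, which builds ubiquitin chains for NF-kB activation, -1.22, -2.38 and -1.70. TNFRSF1A, the main TNF receptor, had -1.64, -0.62 and -0.79. At the other place 18 of the 31 were measured, 16 of them at both places, with a median of -0.81. There, BCL3, an IkB family member that acts in the nucleus, passed below 0 (mean -3.15 ± 0.11, limma adjusted p = 0.0482; not measured on all arrays at its own place), while REL had a mean of -1.99 and UBE2N -0.998. Of 29 receptors and antagonists of the secreted factors, 24 were measured, 0 passed, and their median was -0.09, with 6 above on all 3 arrays and 7 below. CSF3R, the receptor of the CSF3 protein, had -2.21, -2.18 and -2.09 (-2.16 ± 0.06, limma adjusted p = 0.0541), FGFR1 -2.31, -2.95 and -5.83, and IL1RAP, a co-receptor of IL1, -1.45, -2.24 and -1.23. LIFR, the LIF receptor, had 1.31, 1.21 and 0.62. These values rest on the naming too: at the other place the means were 5.38 for FGFR1 (limma adjusted p = 0.454), -0.48 for IL1RAP and -0.04 for LIFR, and CSF3R had no value on all arrays.

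Leukocytes also make many of these cytokines, and fibroblasts many of the proteases. Of 7 leukocyte markers 5 were measured, with a median of -0.42 (array medians -1.10, 0.16 and -0.32), and of 6 fibroblast markers 5, with a median of 0.04 (0.42, -0.18 and 0.34). CD68, a macrophage marker, had -2.48, -2.30 and -2.69 (limma adjusted p = 0.0524), and CD3E, a T cell marker, 1.28, 0.16 and 0.47. Of 12 markers of basal mammary epithelium 6 were measured, with a median of 0.14 (-0.43, 0.18 and 0.17). KRT14, a basal keratin, had -3.02, -2.10 and -1.09, and the cadherins CDH1 and CDH3 had 0.61, 0.58 and 0.92, and 0.56, 0.36 and 4.11. EGFR, the EGF receptor, had -1.49, -0.01 and -1.11. At the own place 0 markers of these lists passed. At the other place the basal median was -1.94 (-1.86, -1.81 and -1.88) over 6 markers, 5 of them measured at both places, with 4 below 0 on all 3 arrays, and the medians were -0.38 for leukocyte and -0.63 for fibroblast markers. There 2 markers passed below 0, CD68 (mean -2.38, limma adjusted p = 0.0483) and ITGB4, an integrin of basal cells (mean -3.04, limma adjusted p = 0.0482, against 1.72 at its own place). All these are differences between the cultures and not levels, and the part of these markers in the results was not tested.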

How the data were processed

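The authors deposited 1 log2 ratio per feature for each of 3 2-colour arrays. Per the labels' protocols, 10 ug of RNA was reverse transcribed and the cDNA coupled to Cy3 (control shRNA) or Cy5 (obscurin shRNA). For the scanner, the normalization and the direction of the ratio, the sources used here give nothing. The log base was read from the values: each array's highest value lay 16.61, the log2 of 100000, above its most repeated value. Centring and direction stay unknown. Array medians were 1.49, 1.28 and 1.39, and 36065, 35502 and 35674 of 45220 features had a value. The number of arrays limits the precision, and p-values measure only the spread between these arrays.

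Features were named through the platform annotation. Of 31332 features with 1 symbol, 31291 matched the GRCh38.p14 RefSeq gene table by identifier and 0 changed symbol, 93 had several symbols and 13795 none. Each array's median over all features was subtracted, features were averaged per gene, and genes with a value on all 3 arrays were tested two-sided for a mean other than 0 by lmFit (intercept alone) and eBayes of limma 3.58.1, run under R 4.3.3, with Benjamini-Hochberg adjustment over all 12550 genes and a threshold of 0.05. The fit was tested on simulated data. All measured genes of the list are named; from each comparison list up to 4 with the smallest p and the same sign on all arrays are named. BCL3 and ITGB4 fall outside this rule and were named after their values were seen. Members, lists and tests were chosen with earlier results of these data known, so medians and counts of lists are descriptions without a test. Other zero points, scaling, feature summaries, filters, tests, places and sets of arrays were tried.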

Additional observations from a re-analysis of the deposited data

How the results depend on the processing

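The zero point, the place of a value and the unit of the test changed counts of calls. Genes past the threshold numbered 2 above and 2161 below with 0 at the most repeated value (11 listed genes), 2 and 746 at the place with the higher intraclass correlation (5 listed genes), and 6 and 1923 when each feature was tested (21 features of listed genes). The 1-sample test without moderation called 0 above and 1 below, and no listed gene. By limma, values as deposited, centring on tested genes, quantile normalization, feature medians, genes on at least 2 arrays, robust eBayes, top values left out, 1 feature row earlier, and leaving out any 1 array gave 0 in each count (0 to 0), with 2017 to 4589 genes at an unadjusted p under 0.05. Zeros from 3 arrays do not show absence of change.

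Medians moved by construction with the zero point. As deposited, centred on tested genes, and with 0 at the most repeated value, they were 0.56, -0.35 and -1.45 for cytokines and chemokines, 0.13, -0.78 and -1.88 for the NF-kB pathway and targets, 1.16, 0.25 and -0.85 for proteases, inhibitors and binders, 1.44, 0.53 and -0.57 for growth factors, and 0.68, -0.23 and -1.33 for all 42 genes. With feature medians they were -0.54 for cytokines, 0.089 for proteases, 0.27 for growth factors and -0.18 for all. With genes on at least 2 arrays they were -0.59 for cytokines and -0.57 for proteases. One row earlier they were -0.75 for proteases and -0.53 for growth factors, and at the higher place -0.54 for cytokines, -0.59 for proteases and 0.17 for growth factors. The cause of these latter moves was not tested. Leaving out 1 array gave -0.76 to -0.33 for cytokines, -1.67 to -1.30 for the NF-kB pathway and targets, -0.62 to -0.23 for proteases, -0.13 to 0.062 for growth factors and -0.78 to -0.48 for all; the cytokine median was -0.33 and that of proteases -0.62 without array 1, proteases had -0.46 without array 3, and the growth factor median turned to -0.05 without array 2 and -0.13 without array 3. Of 42 single genes, 19 changed sign with values as deposited, 7 when centred on tested genes and 8 with feature medians. No paired analysis was possible because there is 1 group, and each array already pairs both cultures.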
